A study of Mus musculus with 20 samples.

Results

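Protein S-acyltransferases, named Zdhhc after the zinc-finger DHHC domain, and the genes that build and remodel the glycosylphosphatidylinositol (GPI) anchor were examined in cultured mouse malignant mesothelioma (MM). Members were the rows of the CPM table whose symbol was Zdhhc, Pig or Pgap with the number or letter of the family, leaving out Pigr, the polymeric immunoglobulin receptor, which only shares the prefix. This gave 49 of 21884 genes, of which 24 were Zdhhc genes and 25 were GPI anchor genes (20 Pig and 5 Pgap genes).

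Each Zdhhc enzyme takes a fatty acid, mostly palmitate, from its CoA ester and passes it to a cysteine of a client protein, and thioesterases can take it off again, so that membrane attachment of proteins such as Ras is reversible. The GPI anchor is a glycolipid put together in the endoplasmic reticulum by a chain of Pig enzymes, joined to the end of a finished protein by a transamidase, and then trimmed and remodelled by Pgap proteins on the way to the cell surface. Mesothelin, the surface protein by which mesothelioma is often recognised, is held by such an anchor, as are folate receptors and glypicans.

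The comparison was of 7 MM organoid libraries (3D, grown in Matrigel) with 7 libraries of 2D MM cell lines, 1 library per culture from each of the lines m5, m12, m28, m54, m60, m67 and m107. All lines came from C57/BL6 mice with MM. The tumour behind 5 of the lines (m5, m12, m28, m54, m60) arose in a p53+/- mouse after crocidolite asbestos. The m67 tumour also followed crocidolite but arose in a WT mouse, and the m107 tumour arose in a p53+/- mouse after carbon nanotubes, with both agents given by intraperitoneal injection. Each line stands for 1 tumour, and m67 and m107 are the only lines of their genotype and agent. The labels give DMEM with 10% serum for all samples, whereas the study's methods give the organoids a serum-free medium with EGF, R-spondin1, Noggin and the ROCK inhibitor Y-27632, so that culture form and medium cannot be told apart.

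The libraries held 11134018 to 53911770 reads assigned to genes, with at least 37301801 in each library of m5 and m12 and at most 20770483 in the others. The 3D and 2D libraries of m5 and of m12 did not deviate together from their culture means (r = 0.00 and -0.11 over all tested genes, against 0.32 to 0.70 in the other 5 lines). By this measure the 2D library closest to 3D m5 was that of m12, and the one closest to 3D m12 was that of m67. The 3D m12 library stood apart: its summed mesenchymal markers (Vim, Cdh2, Col1a1, Col1a2, Pdgfrb and Acta2) came to 1.80 CPM, against 2503 to 7833 in the other organoids and 8295 to 15738 in the 2D cell lines. Its epithelial markers (Epcam, Cdh1, Muc1, Cldn4, Krt7 and Krt20) summed to 3904 CPM, against at most 358 in the other organoids and at most 1132 in the 2D cell lines, whereas its 6 mesothelial markers summed to 3141 CPM, against 420 to 4502 CPM in the other organoids and 325 to 8721 CPM in the 2D cell lines. Of these, Msln (647 CPM) and Krt19 (2493 CPM) made up that sum in 3D m12, in which Wt1 was at 0.0371, Upk3b at 1.06, Lrrn4 at 0.111 and Gpm6a at 0 CPM. Macrophage markers summed to 2057 CPM in 3D m67 and to at most 47.5 CPM elsewhere. The part of these differences in the results was not tested, and values without m12 are given where they matter.

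The sequence that gives the Zdhhc family its name is shown for the members on which the culture comparison turned and for the one with another tetrad. In the canonical transcripts of GENCODE vM39 (GRCm39), 23 of 24 Zdhhc genes encoded the tetrad Asp-His-His-Cys once, whereas Zdhhc13 encoded DQHC in its place. Below, 12 capitals mark the codons of the tetrad and 18 bases of coding sequence stand on each side.
Zdhhc16: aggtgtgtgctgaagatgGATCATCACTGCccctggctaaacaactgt
Zdhhc1: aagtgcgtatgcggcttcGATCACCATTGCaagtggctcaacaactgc
Zdhhc17: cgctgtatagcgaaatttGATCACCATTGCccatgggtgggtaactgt
Zdhhc9: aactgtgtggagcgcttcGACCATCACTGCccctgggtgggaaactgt
Zdhhc2: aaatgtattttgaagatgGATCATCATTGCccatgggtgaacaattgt
Zdhhc5: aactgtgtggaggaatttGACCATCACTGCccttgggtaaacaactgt
Zdhhc13: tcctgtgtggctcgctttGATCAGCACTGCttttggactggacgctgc
The capitals lie at chr19:41927263-41927274 on the plus strand in exon 6 of 11 (Zdhhc16), chr8:106203687-106203698 on the minus strand in exon 7 of 14 (Zdhhc1) and chr10:110784074-110784085 on the minus strand in exon 13 of 17 (Zdhhc17). They lie at chrX:47272016-47272027 on the minus strand in exon 5 of 10 (Zdhhc9), chr8:40909720-40909731 on the plus strand in exon 6 of 13 (Zdhhc2), chr2:84525069-84525080 on the minus strand in exon 5 of 12 (Zdhhc5) and chr7:48466954-48466965 on the plus strand in exon 13 of 17 (Zdhhc13). Every one of these stretches is coding sequence. Over the 23 genes with Asp-His-His-Cys the tetrad was spelled with 11 different sets of codons.

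Of the 24 Zdhhc genes, 18 reached 1 CPM in at least 7 of the 14 libraries and were tested. Of the 25 GPI anchor genes, 23 did, among 11677 tested genes in all. Zdhhc22 and Zdhhc25 had no read in any library, where 3 reads would correspond to 0.0556 to 0.269 CPM depending on the library. Zdhhc19 had 1 read and Zdhhc11 had 4 reads over all libraries, Pigz, the transferase of the fourth mannose, had 40 reads, and Pgap4, which adds a sugar side branch to the anchor, had 92 reads. Zdhhc14 had 282 reads and was highest in 3D m67 (4.17 CPM). Zdhhc23, with 715 reads, was seen mainly in 3D m12 (9.40 CPM) and 3D m54 (6.14 CPM), against 0.0489 and 1.39 CPM in the 2D cell lines of m12 and m54.

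Per kilobase of canonical transcript, Zdhhc6, an enzyme of the endoplasmic reticulum, had the highest mean among the Zdhhc genes in MM organoids (34.1 CPM per kilobase), followed by Zdhhc16 (29.6), Zdhhc5 (25.5) and Zdhhc20 (25.5). In 2D MM cell lines Zdhhc16 had the highest mean level per kilobase (47.1), followed by Zdhhc6 (31.7), Zdhhc5 (30.4) and Zdhhc20 (27.3). The lowest tested Zdhhc gene was Zdhhc15, with 0.552 CPM per kilobase in organoids and 0.323 in 2D cell lines. Zdhhc2 came next in organoids, with 1.17 CPM per kilobase, against 3.79 in 2D cell lines. Among the GPI anchor genes, subunits of the transamidase led: Pigt had 55.1 CPM per kilobase in organoids and 41.7 in 2D cell lines, and Pigs had 25.9 and 23.3. The lowest tested GPI anchor gene was Pigv, which adds the second mannose, with 2.34 CPM per kilobase in organoids and 1.09 in 2D cell lines.

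Whether the Zdhhc genes differed between the cultures was asked with limma on log2(CPM + 1), with the line as a block and Benjamini-Hochberg adjustment over all 11677 genes. The family did not move one way. Zdhhc16 alone passed the threshold of 0.05, and it fell in MM organoids. The other 17 tested members did not pass. Over all genes the test called 3.28% (2.1% higher and 1.18% lower in organoids), so 1 of 18 is near the background share. At an unadjusted p under 0.05 there were 3 members higher (Zdhhc1, Zdhhc17 and Zdhhc9) and 3 lower (Zdhhc16, Zdhhc2 and Zdhhc5) in organoids, beside 16.5% and 8.69% of all genes. The fold change was positive for 8 and negative for 10 of the 18 (positive for 6 after TMM scaling, and for 56.1% of all tested genes unscaled), with a median of -0.01 on the log2 scale, against 0.06 over all tested genes. In neither family did a member have all organoid libraries on one side of all 2D libraries, as 1% of all tested genes did (0.668% above and 0.334% below). In bulk libraries, fewer cells that express a gene and less RNA of it per cell cannot be told apart.

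Zdhhc16, an acyltransferase of the endoplasmic reticulum that in human cells acylates and so controls Zdhhc6, lies at chr19:41921150-41933678. Its lowest, median and highest values were 43.4, 53.8 and 71.9 CPM in MM organoids, against 70.6, 84.1 and 125 CPM in 2D MM cell lines. It was lower in the organoids of 7 of 7 lines, and the groups overlapped only in that 3D m28 (71.9 CPM) stood above 2D m67 (70.6 CPM). Of all tested genes, 3.9% were lower in organoids in 7 of 7 lines. The mean was 55.4 ± 11.8 CPM in organoids and 88.3 ± 17.4 CPM in 2D cell lines (SD, n = 7 each), and the log2 fold change was -0.67 (SE 0.13, 95% interval -0.97 to -0.37, limma adjusted p = 0.0367). By edgeR on the recovered reads the adjusted p was 0.0490, and by limma with no block for the line it was 0.0584. The call was not robust to the lines included: with m5, m28, m54, m60, m67 or m107 left out, each in turn, the limma adjusted p was 0.0535 to 0.0953, and it stayed under the threshold only without m12 (0.0405), while the log2 fold change ranged from -0.73 to -0.62. Zdhhc6, its client, had a log2 fold change of 0.09 (limma adjusted p = 0.610). The exons of its canonical transcript share 718 bases with Mms19 on the opposite strand. Such overlaps were found for 6 Zdhhc genes (Zdhhc3, Zdhhc5, Zdhhc6, Zdhhc12, Zdhhc16 and Zdhhc23) and 6 GPI anchor genes (Pgap2, Pigb, Pigf, Pigh, Pigp and Pigw). The libraries keep strand, but the strand setting of the read counting is not given in the sources used here. Whether reads of the overlapping bases were counted for the member, for its neighbour or not at all is therefore not known. Mms19 had 82.2 ± 23.7 CPM in organoids and 66.4 ± 21.1 CPM in 2D cell lines (log2 fold change 0.32, limma adjusted p = 0.190). Exosc1, which overlaps Zdhhc16 on the opposite strand outside the canonical transcript, had 41.3 ± 13.5 CPM in organoids and 55.3 ± 11.5 CPM in 2D cell lines (log2 fold change -0.45, limma adjusted p = 0.226) and was lower in organoids in 6 of 7 lines, and its part in the Zdhhc16 values was not tested.

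Zdhhc2, which acylates the synaptic scaffold PSD-95 in neurons, had the widest difference of the family. It had 0.0804, 2.08 and 15.2 CPM (lowest, median and highest) in MM organoids, against 2.98, 8.44 and 43.7 CPM in 2D MM cell lines. Lines m12 and m54 went against the other 5, with 15.2 and 4.31 CPM in the organoids, against 3.74 and 2.98 CPM in the 2D cell lines. The log2 fold change was -1.64 (SE 0.68, limma adjusted p = 0.181), and without m12 it was -2.21 (adjusted p = 0.0509). With each line left out in turn it ranged from -2.21 to -1.16, and the limma adjusted p went up to 0.353. The difference was widest in m5 (-4.49), where the organoid value rested on 3 reads. Zdhhc5, an enzyme of the plasma membrane, had 105, 145 and 199 CPM in organoids, against 136, 173 and 208 CPM in 2D cell lines. It was lower in the organoids of every line but m107, with a log2 fold change of -0.27 (SE 0.12, limma adjusted p = 0.196). Zdhhc8, the closest relative of Zdhhc5, had a log2 fold change of -0.27 over all lines (limma adjusted p = 0.558) and 0.029 without m12 (adjusted p = 0.895), so that its sign turned with 1 line. Its value in 3D m12 was 31.1 CPM, against 78.0 to 170 CPM in the other organoids.

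Zdhhc1, which in human cells binds the DNA-sensing adaptor STING, had 11.1, 18.3 and 36.4 CPM (lowest, median and highest) in MM organoids, against 3.53, 9.63 and 21.7 CPM in 2D MM cell lines. It was higher in the organoids of 6 of 7 lines, and m107 was the exception, with 14.4 CPM in organoids and 21.7 CPM in the 2D cell line. The log2 fold change was 1.17 (SE 0.28, limma adjusted p = 0.0577). Without m107 it was 1.46 and passed (adjusted p = 0.0138), and in the 7 such fits that left out 1 line the adjusted p went up to 0.149. The fit without m107 called 417 genes higher and 161 lower of 11677 tested.
Zdhhc17, a Golgi enzyme with ankyrin repeats that binds huntingtin, had 24.5, 45.0 and 78.3 CPM in organoids, against 17.5, 21.7 and 33.2 CPM in 2D cell lines. Organoids of m54, m60 and m67 were above their 2D cell lines by more than 1 on the log2 scale, whereas in m107 both cultures had 24.5 CPM. It had a log2 fold change of 0.86 (SE 0.25, limma adjusted p = 0.0863). Zdhhc13, the other enzyme with ankyrin repeats and the one with DQHC, had a log2 fold change of -0.00 (SE 0.20, adjusted p = 0.994).
Zdhhc9, which acts on Ras together with its partner Golga7, had 32.7, 42.8 and 66.8 CPM in organoids, against 14.5, 25.0 and 46.6 CPM in 2D cell lines. Line m67 alone was lower in organoids, at 35.5 CPM against 46.6 CPM, and m12 and m28 had the widest differences. Its log2 fold change came to 0.75 (SE 0.27, limma adjusted p = 0.135). For Zdhhc4, which acylates the fatty acid carrier CD36 in mouse fat cells, the values were 18.7, 22.0 and 33.8 CPM in organoids, against 13.8, 18.9 and 24.8 CPM in 2D cell lines (log2 fold change 0.30, SE 0.16, limma adjusted p = 0.257).

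The other tested Zdhhc genes had adjusted p-values of 0.375 and above. Zdhhc3 and Zdhhc7, broad-range enzymes of the Golgi, had log2 fold changes of -0.20 (-0.33 without m12) and 0.02, Zdhhc20, which acylates EGFR in human cells, had -0.06, and Zdhhc18, another Golgi enzyme, had -0.17 (SE 0.12, limma adjusted p = 0.375). The 95% intervals of Zdhhc6, Zdhhc7 and Zdhhc18 lay between -0.44 and 0.34 on the log2 scale. Zdhhc21 had a median of 22.5 CPM in organoids and 21.7 CPM in 2D cell lines, but m5 and m12 went opposite ways: 22.5 CPM in 3D m5 against 52.1 CPM in 2D m5, and 66.5 CPM in 3D m12 against 21.2 CPM in 2D m12. Its log2 fold change was -0.08 over all lines and -0.36 without m12.

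The GPI anchor genes leaned toward higher values in MM organoids, but none passed the test. By limma 0 of 23 were called, beside 3.28% of all genes, and 4 had an unadjusted p under 0.05, each higher in organoids (Pigv, Pgap6, Pign and Pigp), beside 16.5% of all genes. The edgeR test called 0, and DESeq2 called 2 (Pigv and Pgap6), both higher, beside 16.2% of all genes called by DESeq2 (8.67% higher). The fold change was positive for 18 and negative for 5 of the 23, and it was positive for 56.1% of all tested genes. Its median was 0.30 on the log2 scale, against 0.06 over all tested genes. This median rested in part on 1 line: without m12 it was 0.17, with 16 of 23 positive, and without m5 and m12 it was 0.15. With all lines and TMM scaling 16 of 23 were positive with a median of 0.21 (all genes -0.03).

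The widest differences were in line m12. In m12 the organoid library was above the 2D library for 19 of 23 GPI anchor genes (50.6% of all tested genes), and for 11 of 23 (47.8%) by more than 1 on the log2 scale, with 0 lower by that much. Of all tested genes, 17.98% were higher and 17.4% lower by more than 1 in m12. The 11 genes were Pigc, Pigh, Pigb, Pigv, Pigo, Pigt, Pigu, Pgap1, Pgap2, Pgap3 and Pgap6. They came from steps between the first sugar transfer and the remodelling of the attached anchor, but not from every step. In m12 the difference was 0.78 for Pigl, -0.03 for Pigw, -0.28 for Pign, 0.02 for Pigg and -0.12 for Pigk. In the other 6 lines 0 to 3 GPI anchor genes were higher by more than 1, and the median difference ran from -0.17 in m54 to 0.57 in m28, against 0.99 in m12. The 3D m12 library was the highest of the 7 organoid libraries for 15 of 23 GPI anchor genes (65.2%) and for 6 of 18 Zdhhc genes (33.3%), against 19.9% of all tested genes. It is also the library with mesenchymal markers near 0 and the highest epithelial markers, and the part of these in the GPI values was not tested.

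**Figure D1:**
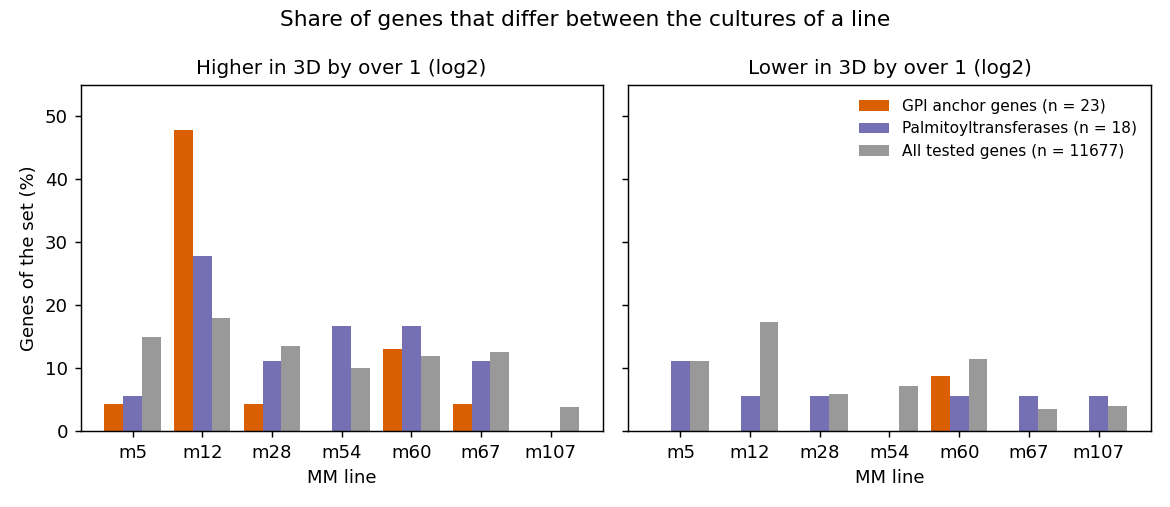
Share of genes (y axis, %) whose 3D library differed from the 2D library of the same line by more than 1 in log2(CPM + 1), higher in 3D on the left and lower in 3D on the right, for 23 GPI anchor genes, 18 Zdhhc genes and all 11677 tested genes. The bar of the GPI anchor genes in m12 reaches 47.8%, against 17.98% of all genes, and those of the other lines stay at or below 13.0%.

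At the first step N-acetylglucosamine is put on phosphatidylinositol. All 5 tested Pig subunits of this step had positive fold changes, with a median of 0.25 on the log2 scale and 0.17 without m12. Without m12 or after TMM scaling 4 of 5 were positive, where Pigq turned. Subunits with other symbols were listed apart: Dpm2 had a log2 fold change of -0.14 (limma adjusted p = 0.526) and Pyurf one of 0.22 (limma adjusted p = 0.4345). Piga, the catalytic subunit, had 8.67, 18.5 and 24.7 CPM (lowest, median and highest) in MM organoids, against 8.98, 14.4 and 22.6 CPM in 2D MM cell lines (log2 fold change 0.20, SE 0.16, limma adjusted p = 0.457). Pigp, an accessory subunit, had 9.39, 15.2 and 38.7 CPM in organoids, against 5.99, 10.8 and 21.8 CPM in 2D cell lines. It was higher in the organoids of every line but m107, and 3D m60 was the highest library. Its log2 fold change was 0.52 (SE 0.23, limma adjusted p = 0.198). Pigp shares 121 exonic bases with Ttc3 on the opposite strand, which had 177 ± 52.9 CPM in organoids and 115 ± 12.1 CPM in 2D cell lines. Pigq, with 72.5 CPM in the median organoid and 78.3 CPM in the median 2D cell line, had a log2 fold change of 0.03 over all lines and -0.03 without m12.

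For the next steps the fold changes were negative. Pigl removes the acetyl group from that first sugar. It had 5.47, 8.16 and 12.4 CPM in organoids, against 6.82, 8.53 and 10.3 CPM in 2D cell lines (log2 fold change -0.11, SE 0.20, limma adjusted p = 0.763). It was lower in the organoids of every line but m12, without which the log2 fold change was -0.25. Pigw, which acylates the inositol ring, had 3.71, 6.84 and 11.2 CPM in organoids, against 4.49, 9.21 and 14.3 CPM in 2D cell lines. It was lower in organoids in 7 of 7 lines, as were 3.9% of all tested genes, with the widest gap in m60 (3.71 CPM in organoids against 8.94 CPM in the 2D cell line), and the log2 fold change was -0.31 (SE 0.19, limma adjusted p = 0.337). Pigw shares 72 exonic bases with Myo19 on the opposite strand, which was lower in organoids in 6 of 7 lines (26.8 ± 12.1 CPM in organoids, 40.5 ± 14.96 CPM in 2D cell lines, log2 fold change -0.61, limma adjusted p = 0.114), and its part in the Pigw values was not tested.

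All 4 tested genes of mannose transfer had positive fold changes, also without m12 (3 of 4 after TMM scaling, where Pigm turned). Pigv had 3.46, 9.44 and 17.8 CPM in organoids, against 2.46, 3.61 and 7.40 CPM in 2D cell lines. It was higher in the organoids of 6 of 7 lines, with m12, m67, m60 and m5 well above their 2D cell lines and m107 at 3.46 CPM in organoids and 3.77 CPM in 2D culture. Its mean was 9.31 ± 5.27 CPM in organoids and 4.33 ± 1.78 CPM in 2D cell lines, with a log2 fold change of 0.84 (SE 0.23, limma adjusted p = 0.0730). Without m107 it was 1.00 and passed (adjusted p = 0.0437), in a fit that called 417 genes higher and 161 lower of 11677 tested. With any other line left out Pigv did not pass, with limma adjusted p up to 0.164. Pigb, the transferase of the third mannose, had a log2 fold change of 0.39 (limma adjusted p = 0.379), and 0.18 without m12. Pigm and Pigx, the catalytic and accessory subunits for the first, had 0.09 and 0.30, which were 0.032 and 0.26 without m12.

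The ethanolamine phosphate transferases went both ways. Pign, which decorates the first mannose, had 61.6, 76.3 and 103.025 CPM in organoids, against 40.1, 60.9 and 75.2 CPM in 2D cell lines. Of the 4 GPI anchor genes with an unadjusted p under 0.05 it alone was lower in 3D m12, at 61.6 CPM against 75.2 CPM in 2D m12, and it was higher in the organoids of the other 6 lines. The log2 fold change was 0.42 (SE 0.15, limma adjusted p = 0.130), and without m12 it was 0.53 and passed (adjusted p = 0.0437). That fit called more genes in all, 508 higher and 263 lower of 11677 tested. With any other line left out Pign did not pass, with limma adjusted p up to 0.290. Pigg, which decorates the second mannose, was even across libraries: 16.4, 19.2 and 21.3 CPM in organoids, against 17.8, 21.0 and 24.8 CPM in 2D cell lines (log2 fold change -0.18, SE 0.14, limma adjusted p = 0.441). Pigf, the shared partner of Pigg and Pigo, had 3.80, 10.3 and 23.3 CPM in organoids, against 7.45, 16.3 and 19.5 CPM in 2D cell lines, with both the lowest and the highest value in organoids (m60 and m67). Its log2 fold change was -0.27 (SE 0.24, limma adjusted p = 0.510). Pigo, for the third mannose, had 50.3 CPM in 3D m12, against 13.5 to 23.9 CPM in the other organoids and 12.6 CPM in 2D m12. Its log2 fold change was 0.15 over all lines and -0.15 without m12, so that its sign turned with 1 line.

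Of the transamidase, which cuts the client protein and joins it to the anchor, Pigk is the catalytic subunit and Pigs, Pigt, Pigu and Gpaa1 are partners. Pigt had 92.1, 146 and 218 CPM in organoids, against 57.3, 95.8 and 159 CPM in 2D cell lines, with a log2 fold change of 0.41 (SE 0.26, limma adjusted p = 0.355). Its highest organoid and its lowest 2D cell line were both m12, and without m12 the log2 fold change was 0.16. Pigu had 0.31, Pigs 0.20 and Pigk -0.08 as log2 fold changes, which were 0.19, 0.083 and -0.07 without m12. The median of the 4 Pig subunits was 0.26 with all lines and 0.12 without m12. Gpaa1, listed apart for its symbol, had a log2 fold change of -0.06 over all lines and -0.10 without m12.

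Remodelling of the attached anchor had the largest median of the pathway, 0.87 over 4 tested Pgap genes, which was 0.40 without m12. Mppe1, a gene of this step listed apart for its symbol, is not in that median. Its log2 fold change was 0.49 (limma adjusted p = 0.366), and 0.29 without m12. Pgap6, a phospholipase that in mammalian cells releases GPI-anchored Cripto, had 5.70, 16.1 and 57.4 CPM in organoids, against 3.06, 5.58 and 16.9 CPM in 2D cell lines. It was higher in the organoids of 7 of 7 lines, as were 7.05% of all tested genes, with 3D m12 highest. The log2 fold change was 1.14 (SE 0.36, limma adjusted p = 0.0978), and without m12 it was 0.78 (adjusted p = 0.0631).
Pgap1, which removes the acyl chain from inositol, had 12.2, 25.7 and 449 CPM in organoids, against 13.5, 17.6 and 45.8 CPM in 2D cell lines. The 3D m12 library held the value of 449 CPM, against 15.95 CPM in 2D m12 and at most 88.7 CPM in another organoid. Over all lines the log2 fold change was 1.03 (SE 0.56, limma adjusted p = 0.282), while m28 and m54 were lower in organoids. Without m12 it was 0.42 (adjusted p = 0.313).
Pgap2 and Pgap3, which exchange fatty acids of the anchor in the Golgi, were also highest in 3D m12. Pgap2 had 19.8, 25.1 and 106.9 CPM in organoids, against 15.6, 20.2 and 23.3 CPM in 2D cell lines (log2 fold change 0.61, SE 0.27, limma adjusted p = 0.206). Pgap3 had 2.23, 9.25 and 24.7 CPM in organoids, against 3.12, 5.07 and 8.17 CPM in 2D cell lines (log2 fold change 0.70, SE 0.35, limma adjusted p = 0.249). Without m12 the log2 fold changes were 0.34 for Pgap2 and 0.38 for Pgap3.

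**Figure D2:**
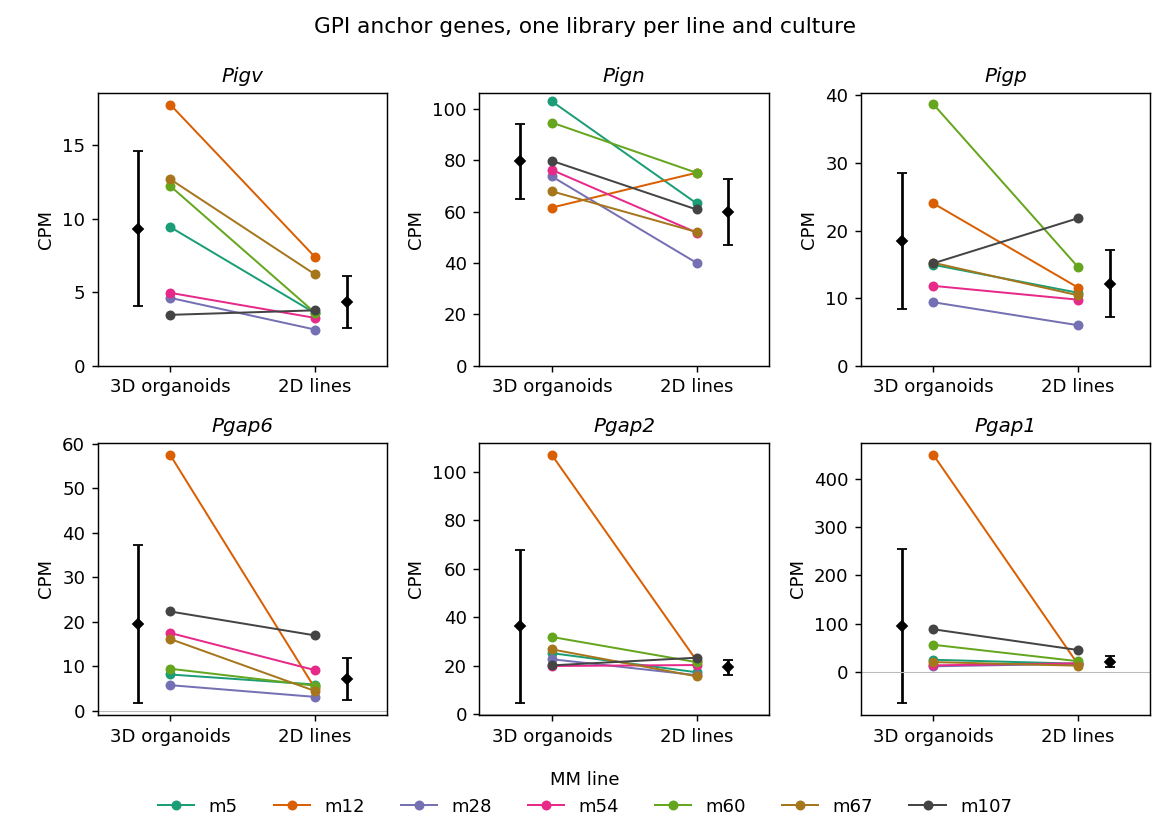
CPM (y axis) of 6 GPI anchor genes in each library of MM organoids (left) and 2D MM cell lines (right), with the libraries of a line joined and black diamonds with bars for the mean and SD (n = 7 each). Pgap1, Pgap2 and Pgap6 have 1 organoid library, m12, far above the rest (449, 106.9 and 57.4 CPM), whereas Pigv and Pign are spread over several lines.

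**Figure D3:**
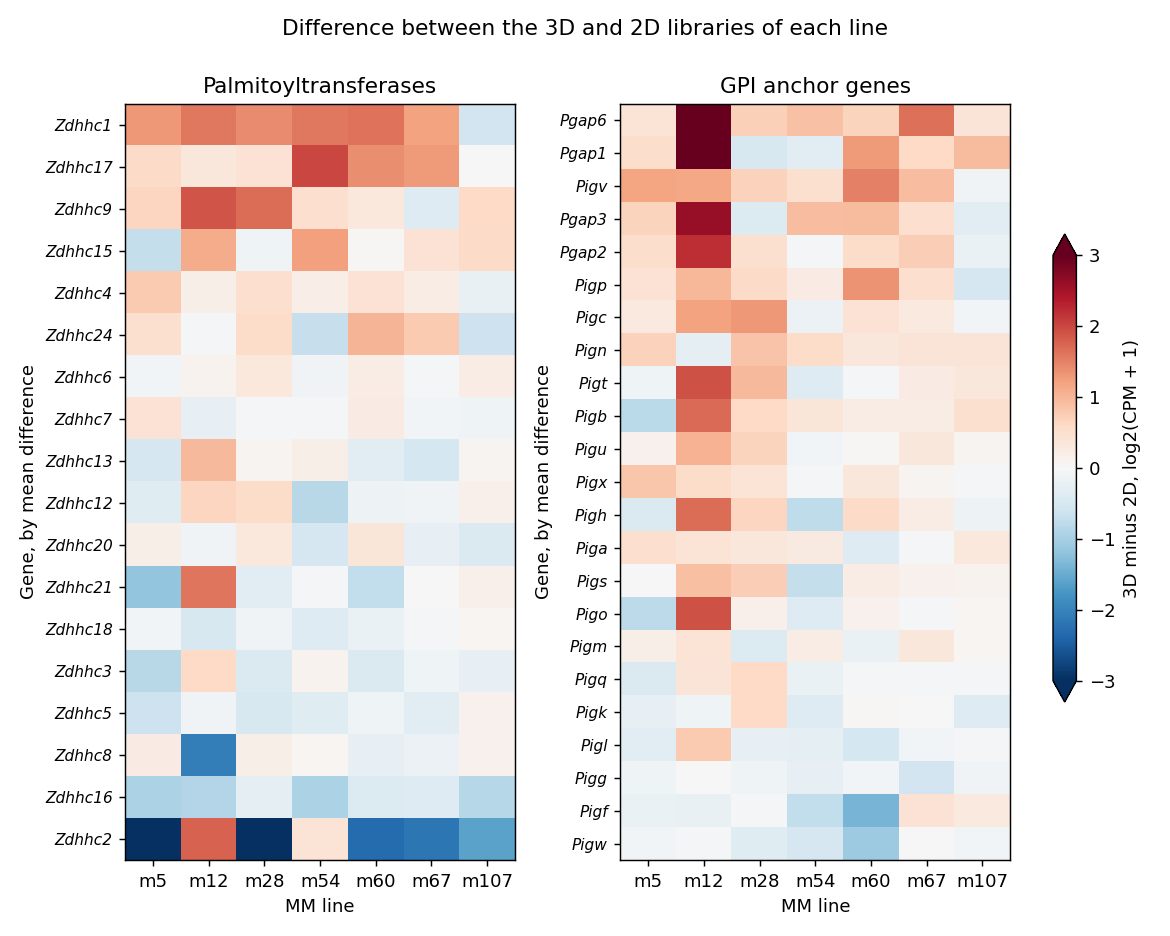
Difference between the 3D and the 2D library of each line in log2(CPM + 1), red for higher and blue for lower in 3D, for the 18 tested Zdhhc genes (left) and the 23 tested GPI anchor genes (right), each ordered by mean difference. Colours are capped at 3 in both directions. The m12 column of the GPI panel is the reddest, with 11 of 23 genes above 1, and the Zdhhc16 row is blue in all 7 lines.

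Whether members differed between the 7 lines was asked with the F test of the line terms in the same limma fit, in which the libraries of both cultures of a line serve as its replicates once the culture difference is removed. The test called 0 of 18 Zdhhc and 0 of 23 GPI anchor genes, beside 1.33% of all tested genes. At an unadjusted p under 0.05 it gave 3 Zdhhc and 4 GPI anchor genes, beside 26.1% of all tested genes, and edgeR called 0 in both families. The median range between the highest and the lowest line mean was 1.16 on the log2 scale for Zdhhc genes, 1.07 for GPI anchor genes and 1.218 for all tested genes.

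Zdhhc18 had the smallest p between lines. It was highest in m67, with 89.4 CPM in organoids and 91.4 CPM in the 2D cell line, and lowest in m107, with 29.1 CPM in organoids and 27.8 CPM in the 2D cell line. Both cultures placed the lines in much the same order, and the line means spanned 1.64 on the log2 scale (limma F test, adjusted p = 0.0538). Without m12, whose 3D and 2D values were 48.7 and 68.1 CPM, it passed (adjusted p = 0.0202). Zdhhc15, a relative of Zdhhc2, was also highest in m67, with 10.3 CPM in organoids and 7.33 CPM in the 2D cell line. It was next in m54 and m107, and at or under 1.45 CPM in both cultures of m5, m12, m28 and m60 (limma F test, adjusted p = 0.0675, and 0.0238 without m12). The share of all tested genes called between lines without m12 is not given. Neither the Zdhhc18 nor the Zdhhc15 call without m12 is therefore read as a result about the gene. Macrophage markers summed to 2057 CPM in 3D m67, to 34.6 CPM in 2D m67 and to 47.5 CPM in 2D m12. Among the 2D cell lines Lyz2 (10.9 CPM), C1qa, C1qb and C1qc (2.27, 2.85 and 2.56 CPM), Adgre1 (0.723 CPM) and Ptprc (0.675 CPM) were highest in m67. Cd68 was highest in 2D m12 (41.0 CPM, against 7.04 CPM in 2D m67) and Csf1r in 2D m107 (11.4 CPM, against 7.62 CPM in 2D m67). The part of these markers in the values of Zdhhc18 and Zdhhc15 was not tested. Zdhhc20 was highest in m107, with 188 CPM in organoids and 255 CPM in the 2D cell line, and lowest in m12, with 81.5 CPM and 87.8 CPM (limma F test, adjusted p = 0.140).

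Among the GPI anchor genes Pigk had the smallest p between lines. It had 106 CPM in organoids and 103.5 CPM in the 2D cell line of m60, against 37.6 to 71.1 CPM in the other organoids and 40.9 to 70.4 CPM in the other 2D cell lines (limma F test, adjusted p = 0.130). In both cultures m60 stood above every other line. Piga, on the X chromosome, had its highest line mean in m67 (21.7 CPM in organoids and 22.6 CPM in the 2D cell line) and its lowest in m60 (8.67 and 11.6 CPM) (limma F test, adjusted p = 0.156). Pigv had its highest line mean in m12 and its lowest in m28 (limma F test, adjusted p = 0.179).

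**Figure D4:**
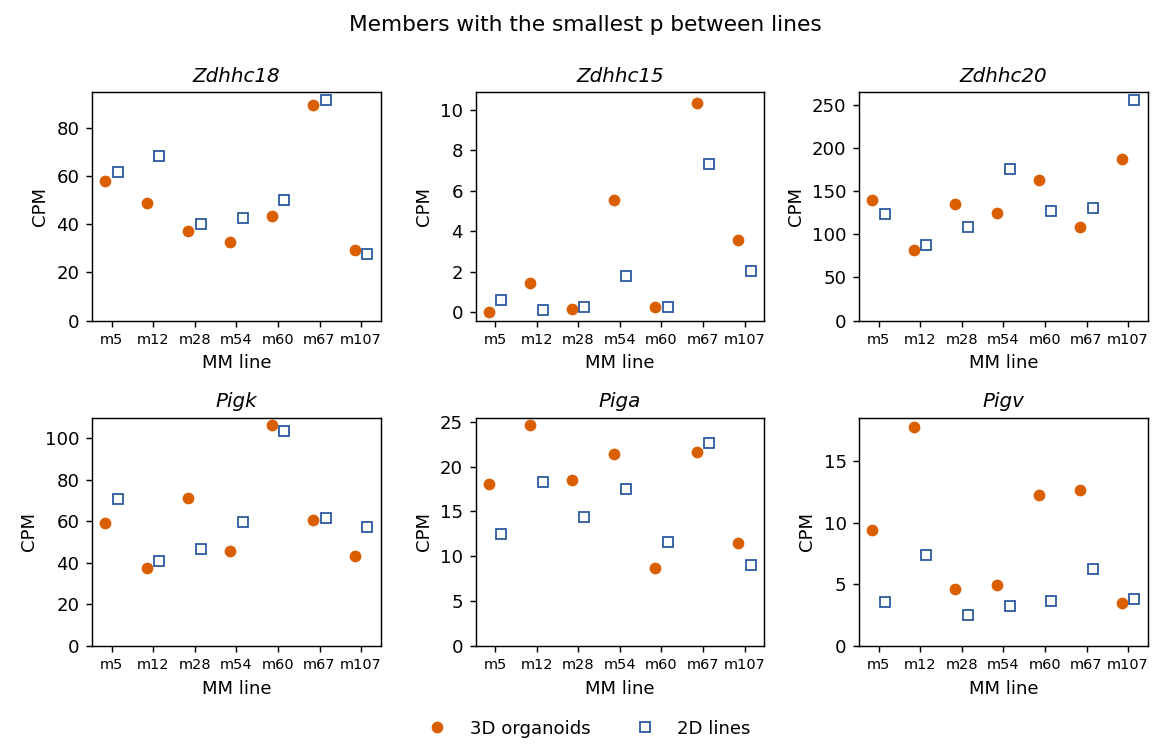
CPM (y axis) by MM line (x axis) of the 3 Zdhhc and the 3 GPI anchor genes with the smallest p between lines, organoids as filled circles on the left and 2D cell lines as open squares on the right of each line. The 2 symbols of a line lie close together for Zdhhc18, with m67 at 89.4 and 91.4 CPM, and for Pigk in m60 (106 and 103.5 CPM), and lie apart for Pigv.

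The genes that work beside these enzymes had median differences near 0. Of the partners of the acylation cycle, which are the thioesterases and the accessory proteins of Zdhhc enzymes, 10 of 11 were tested and limma called 0 (1 at an unadjusted p under 0.05, Selenok, the partner of Zdhhc6, with a log2 fold change of 0.41 and adjusted p = 0.153). Golga7, the partner of Zdhhc9, had 83.3 ± 13.5 CPM in MM organoids and 81.7 ± 16.3 CPM in 2D MM cell lines. Of 12 genes of other protein lipidation (farnesyl, geranylgeranyl and myristoyl transfer, the steps after it, and acylation of secreted proteins) limma called 0, with 1 at an unadjusted p under 0.05: Zmpste24, the protease that trims farnesylated prelamin A, was lower in organoids in 7 of 7 lines (86.4 ± 22.8 CPM in organoids, 125 ± 22.5 CPM in 2D cell lines, log2 fold change -0.55, limma adjusted p = 0.0665). The 13 other genes of GPI synthesis, remodelling and export were set apart from the members by symbol, and included Dpm2, Pyurf, Gpaa1 and Mppe1. Of these 13, 12 were tested and limma called 0. At an unadjusted p under 0.05 there was 1, the cargo receptor Tmed5 (log2 fold change -0.51, limma adjusted p = 0.0985). The median fold changes of these lists were -0.02, -0.06 and -0.04 on the log2 scale, against 0.30 for the Pig and Pgap genes and 0.06 for all genes.

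Of 47 genes for GPI-anchored proteins, the clients of the pathway, 32 were tested, and 1 passed: Folr1, a folate receptor, fell in organoids. It had 0.0371, 3.85 and 19.1 CPM in organoids, against 2.91, 18.3 and 52.3 CPM in 2D cell lines, and was lower in the organoids of 7 of 7 lines (log2 fold change -1.42, SE 0.21, limma adjusted p = 0.0234). With 1 line left out it stayed negative (-1.53 to -1.31), and the limma adjusted p ran from 0.0191 to 0.0728: the call was lost without m5, m28, m54 or m67. As background, 3.28% of all genes were called. At an unadjusted p under 0.05 there were 6 higher and 4 lower, beside 16.5% and 8.69% of all genes, and the median log2 fold change was 0.33. Higher values that did not pass were seen for Rgmb, a bone morphogenetic protein co-receptor (0.68, limma adjusted p = 0.0574), and for the complement regulator Cd55 (1.75, 0.0828) and the neurturin receptor Gfra2 (2.61, 0.0945). Lower values that did not pass were seen for Cd109 (-2.43, 0.0548) and the ecto-nucleotidase Nt5e (-1.10, 0.0944). Without m12, limma called Folr1 (-1.34, adjusted p = 0.0191), Rgmb (0.75, 0.0405), Gfra2 (3.44, 0.00965), Cd14 (1.26, 0.0284) and Cd109 (-1.96, 0.0407). That fit called more genes in all, 508 higher and 263 lower of 11677 tested. Between lines the test called Folr1 (limma adjusted p = 0.0153) and Nt5e (0.0225), beside 1.33% of all genes. The call between lines was lost for Folr1 without m107 (limma adjusted p = 0.0667) and for Nt5e without m28, m60, m67 or m107 (up to 0.0879), and the median range between line means was 3.46 on the log2 scale, against 1.07 for the Pig and Pgap genes. Msln, which encodes mesothelin, had 30.9, 143 and 647 CPM in organoids, against 13.9, 127 and 480 CPM in 2D cell lines (log2 fold change -0.11, limma adjusted p = 0.950). In m12 it had 647 CPM in organoids and 13.9 CPM in the 2D cell line. Without m12 the log2 fold change was -1.03 (limma adjusted p = 0.134), with lower values in the organoids of 5 of 6 lines.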

How the data were processed

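RNA of 14 MM libraries was sequenced, and the deposited table gives CPM, which the authors computed with edgeR after trimming with Trim Galore (0.6.4), alignment to GRCm39 with STAR (2.7.9a) and counting with HTSeq (0.12.4), per the study's methods and the submitters' processing notes. The deposited p-value, q-value and ranking columns hold the authors' own comparison and were not used, and 6 normal mesothelial samples were not analysed here. In every library 100% of CPM values were whole multiples of 1 read (within 0.001 reads), so read counts were recovered, and 3 reads set the floor. Members, gene lists and tests were chosen with earlier results of these data known.

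The genes tested had 1 CPM or more in 7 or more libraries. The test was limma (3.58.1, R 4.3.3) on log2(CPM + 1), fitted with line and culture as terms, a trend in the moderated variances, two-sided tests and Benjamini-Hochberg adjustment over all tested genes, threshold 0.05. A fold change is on the log2(CPM + 1) scale, which understates that of low genes. Lines pair the libraries, since both cultures of a line come from 1 mouse: own-line correlations of the deviations were over 0.1 in 5 of 7 lines, not in m5 and m12. The p-values measure the spread between lines with 1 library each. On the recovered reads edgeR (4.0.16) called 78 and DESeq2 (1.42.0) 1886 genes between cultures, against 383 by limma. TMM scaling of the CPM called 151 higher and 158 lower, against 245 and 138 as deposited. Other alternatives were a pseudocount of 0.1 or 5, no filter, a mean of at least 10 CPM, no replicate block, each line left out and m5 and m12 left out. Scripts were tested on simulated data. All members could be named. Full values went to members past a threshold, the 4 of each family with the smallest p in each direction and the 3 with the smallest p between lines. In the related lists, up to 3 tested genes with the smallest p in each direction were named. Values of the other members, of Golga7, Msln, Cd14, Dpm2, Pyurf, Gpaa1 and Mppe1 and of overlapping genes were added after they were seen. Positions, coding sequence and transcript lengths are of GENCODE vM39 (GRCm39), in which all 49 member IDs matched with the same symbol.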

Additional observations from a re-analysis of the deposited data

Results flagged for a closer look

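Of 82 groups of 7 values (41 tested members in each culture), 6 had a library far from the other 6 by Dixon's criterion on log2(CPM + 1), where chance alone flags about 1 in 20. Among MM organoids it was m12 each time: Zdhhc13 at 54.01 CPM (next 26.3), Pgap2 at 106.9 CPM (next 31.8) and Pigo at 50.3 CPM (next 23.9). Pgap1 in 3D m12, at 449 CPM, was not past the critical value on the log2(CPM + 1) scale used, on which the other organoids spread from 12.2 to 88.7 CPM. Among 2D MM cell lines, m107 was far above the rest for Zdhhc16 (125 CPM, next 88.3) and Pgap1 (45.8 CPM, next 22.7), and m28 was far below for Pigx (7.79 CPM, next 12.6). Zdhhc16 in m107 was lower in the organoids as well as in the other 6 lines, and without m107 its log2 fold change was -0.64.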

How the results depend on the processing

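Between cultures limma called 383 genes. The count was 63 with no filter, 139 with no replicate block, 78 by edgeR and 1886 by DESeq2 on the recovered reads, and 22 (without m54) to 771 (without m12) with 1 line left out. Of the Zdhhc genes 1 was called, Zdhhc16. The count was 0 with no filter, 0 with no replicate block and 0 without m5 and m12. By DESeq2 it was 4 (Zdhhc16, Zdhhc1, Zdhhc17 and Zdhhc2), beside 16.2% of all tested genes called by DESeq2. With 1 line left out it was 0 to 1, where without m107 the gene called was Zdhhc1 and no longer Zdhhc16. Zdhhc16 then had a limma adjusted p of 0.0641 with no filter, 0.0584 with no replicate block and 0.0932 without m5 and m12, and its fold change stayed negative in all 16 alternatives. Of the GPI anchor genes 0 were called by limma, 2 by DESeq2 (Pigv and Pgap6) and 0 to 1 with 1 line left out (Pign without m12, Pigv without m107). Between lines 0 Zdhhc genes were called, but 1 with no filter (Zdhhc18), 3 without m5 and m12 (Zdhhc18, Zdhhc15 and Zdhhc21) and 0 to 2 with 1 line left out. Of the GPI anchor genes 0 were called between lines, 1 without m5 and m12 (Pgap6) and 0 to 0 with 1 line left out. The share of all tested genes called between lines is given only for the full fit (1.33%). The counts from the other fits are therefore not read as a result about either family. The log2 fold change of Zdhhc20 was -0.14 to 0.0069 with 1 line left out, and it turned positive only without m54. The replicate block changed no other call of a member. With no filter or with lines left out, more genes or fewer libraries enter the test. The cause of the other differences was not tested.

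With 1 library per line and culture, technical and biological spread cannot be told apart, and m67 and m107 each stand alone for their genotype and agent. Depth was lowest at 11134018 reads, where 3 reads are 0.269 CPM, so the members without reads are undetected at this depth, not shown to be absent.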
